A study of Mus musculus with 2 samples.

Results

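The genes described here encode tropomyosins (Tpm1, Tpm2, Tpm3 and Tpm4), tropomodulins (Tmod1, Tmod2, Tmod3 and Tmod4) and the leiomodins Lmod1 and Lmod2. They were chosen by name, through gene identifiers matched to GENCODE, and are 10 of the 43346 Ensembl genes in the deposited tables: 4 tropomyosins, 4 tropomodulins and 2 leiomodins. RNA came from the hearts of healthy B6NCrl embryos (a C57BL/6N substrain of mouse) at embryonic day 13.5, with males and females pooled. Total RNA above 200 nt, extracted with mirVana reagents and spiked with control RNA, was sequenced from an input of 10 ng in 2 libraries. They are biological replicates 1 and 2 of 1 group, from separate tissue entries under 1 donor entry, so the design compares no treatment, genotype or age. How many embryos each pool held was not given in the sources used here.

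Tropomyosins are coiled-coil proteins that lie end to end along actin filaments. In striated muscle they hold the troponin complex and, with calcium, set whether myosin can reach actin, while shorter tropomyosins line actin filaments of the non-muscle cytoskeleton. Tropomodulins cap the slow-growing pointed end of the thin filament, and the related leiomodins nucleate actin and lengthen filaments at that end. In mice, loss of Tpm1 or of Tmod1 stops heart development in the embryo.

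Tpm1, Tpm2 and Tpm3 each make several proteins by choosing among alternative coding exons, and sequences of exons that differ between the forms are shown first. Long forms start in exon 1a (114 coding nt in Tpm1, Tpm2 and Tpm3) and short forms in the internal exon 1b (132 nt). An internal pair of 76 nt, 6a and 6b, is used one or the other, and the protein ends in the muscle exon 9a or in the distal exon 9d. The form of striated muscle joins 1a, 6b and 9a. The sequences below come from GENCODE M21 transcripts on GRCm38 (mm10), 5′ to 3′ on the gene's strand, and hold only the coding part. Capitals mark the bases that differ between 6a and 6b, or between 9a and 9d, of the same gene.
Tpm1 exon 6a (chr9:67032466-67032541, minus strand): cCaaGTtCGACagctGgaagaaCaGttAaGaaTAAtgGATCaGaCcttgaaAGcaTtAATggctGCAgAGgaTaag
Tpm1 exon 6b (chr9:67031951-67032026, minus strand): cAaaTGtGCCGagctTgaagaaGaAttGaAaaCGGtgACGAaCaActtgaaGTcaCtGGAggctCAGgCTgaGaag
Tpm1 exon 9a (chr9:67029664-67029742, minus strand): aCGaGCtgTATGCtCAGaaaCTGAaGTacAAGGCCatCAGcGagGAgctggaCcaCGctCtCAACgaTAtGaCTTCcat
Tpm1 exon 9d (chr9:67023362-67023441, minus strand): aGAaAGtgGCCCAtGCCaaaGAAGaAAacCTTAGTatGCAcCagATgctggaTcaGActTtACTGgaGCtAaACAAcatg
Tpm2 exon 6a (chr4:43519003-43519078, minus strand): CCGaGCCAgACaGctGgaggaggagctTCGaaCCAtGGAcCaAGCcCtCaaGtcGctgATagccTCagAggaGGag
Tpm2 exon 6b (chr4:43518644-43518719, minus strand): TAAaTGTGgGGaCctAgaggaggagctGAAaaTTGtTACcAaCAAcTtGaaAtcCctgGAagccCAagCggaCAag
Tpm2 exon 9a (chr4:43515924-43516003, minus strand): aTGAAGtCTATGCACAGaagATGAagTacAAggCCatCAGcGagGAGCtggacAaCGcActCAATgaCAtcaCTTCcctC
Tpm2 exon 9d (chr4:43514782-43514861, minus strand): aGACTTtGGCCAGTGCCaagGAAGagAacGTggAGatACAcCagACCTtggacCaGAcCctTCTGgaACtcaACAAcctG

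The alternatives within a gene were less alike than the same exon in different genes. In Tpm1, exons 6a and 6b were identical at 56.6% of 76 positions and 9a and 9d at 43.0% of the 79 positions compared. In Tpm2 the same pairs were identical at 53.9% and 41.3%, and in Tpm3 at 51.3% and 45.6%. Exon 9a, by contrast, was identical at 83.5% of positions between Tpm1 and Tpm2 and at 88.6% between Tpm1 and Tpm3, and exon 6b at 73.7% to 76.3% over the 3 pairs of genes. Exon 6a was less alike across genes, at 61.8% to 65.8%, and exon 9d lay between 60.0% and 71.3%. Tpm4, which has a single version of each region, was nearer to 6b (71.1% to 73.7%) than to 6a (43.4% to 55.3%) of the other genes, and nearer to 9d (58.8% to 66.3%) than to 9a (42.5% to 46.8%).

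The unit of level is TPM, which counts transcripts corrected for their length and for library depth, and averages are mean ± SD over the 2 libraries (n = 2). Library totals were 36733400 estimated reads for replicate 1 and 36060765 for replicate 2, and 1 TPM of a 1 kb transcript stood for 29.3 and 27.4 reads. All 10 cardiomyocyte markers were found, summing to 20973 TPM and 25369 TPM in replicates 1 and 2. The libraries differed in other tissue markers: all 7 liver markers were at least 2-fold higher in replicate 2 (summed level 57.9 against 376 TPM), and the 10 erythroid markers summed to 36822 against 22336 TPM. Spike-ins held 11.1% of TPM in replicate 1 and 5.04% in replicate 2, and TPM of all genes ran higher in replicate 2 (median log2 ratio 0.15). In bulk RNA, fewer cells of a type and less RNA per cell cannot be told apart.

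At a threshold of 1 TPM in both libraries, 8 of the 10 genes were detected, beside 57.3% of 21474 protein-coding genes. Tpm1, Tpm2, Tpm3, Tpm4 and Tmod1 each exceeded 100 TPM in both libraries. The lowest detected gene was Tmod2, and the nearest below the threshold was Lmod1, with 0.97 TPM in replicate 1 and 1.11 in replicate 2. Tmod4 was at 0.64 and 1.16 TPM. Both genes passed in replicate 2 alone, and both passed at a threshold of 0.5 TPM. By mean TPM the order of the 10 genes was Tpm1, Tpm4, Tpm3, Tmod1, Tpm2, Lmod2, Tmod3, Tmod2, Lmod1 and Tmod4. Neighbours whose SDs met were Tmod1 (141 ± 12) with Tpm2 (119 ± 12), Lmod2 (35.9 ± 3.6) with Tmod3 (32.2 ± 2.2), and Lmod1 (1.04 ± 0.10) with Tmod4 (0.90 ± 0.37). Within each library, however, Tmod1 was above Tpm2 and Lmod2 was above Tmod3. Tmod4 stood above Lmod1 in replicate 2 only.

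**Figure D1:**
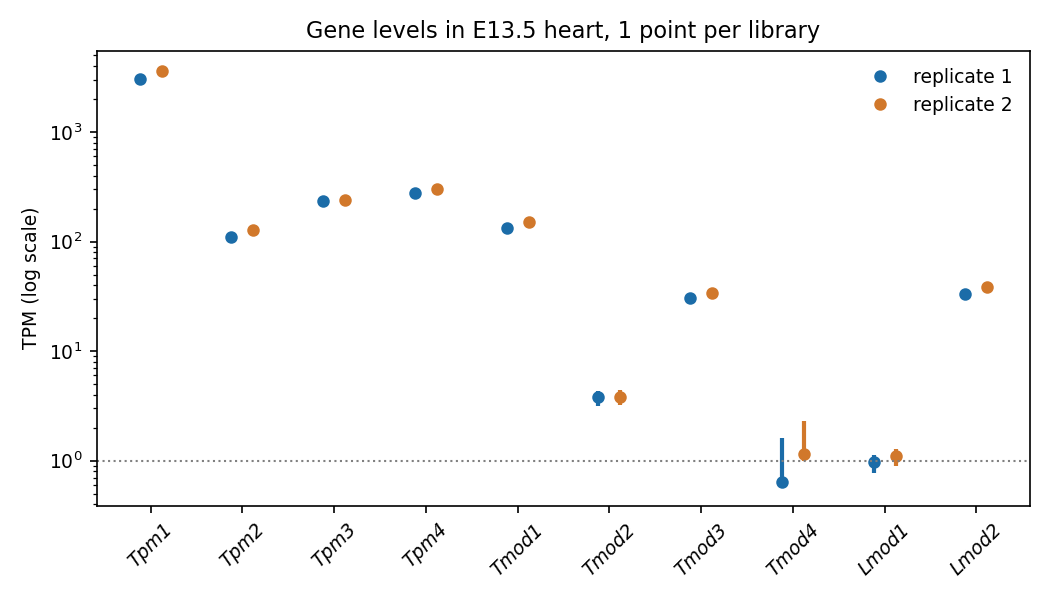
Level of each gene in TPM (log scale), with 1 point per library. Vertical lines are the deposited credibility intervals of TPM, many of them shorter than the point, and the dotted line is the detection threshold of 1 TPM. Tpm1 stands highest, at 3071 and 3565 TPM, and Tmod4 and Lmod1 lie near 1 TPM.

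Tpm1, the alpha-tropomyosin gene and the main tropomyosin of the heart (ENSMUSG00000032366.11, chr9:67022590-67049406, minus strand), led the set. It reached 3071 TPM in replicate 1 and 3565 in replicate 2, a mean of 3318 ± 349 TPM, and ranked 21 among protein-coding genes in each library. Tpm1 supplied 83.7% ± 0.8 of the 3961 ± 379 TPM of all tropomyosins. The deposited credibility interval of Tpm1 lay below its deposited TPM in both libraries, from 2994 to 3032 TPM in replicate 1 and from 3471 to 3515 TPM in replicate 2. That interval is of the posterior mean estimate, and Tpm4 showed the same offset.

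The other tropomyosin genes were each more than 10-fold lower than Tpm1 by TPM. Tpm4, whose product is a short cytoskeletal tropomyosin (ENSMUSG00000031799.9, chr8:72134975-72153142, plus strand), was at 278 and 299 TPM in replicates 1 and 2. Tpm3, which encodes the slow-muscle tropomyosin and several cytoskeletal ones (ENSMUSG00000027940.14, chr3:90072649-90100902, plus strand), was at 233 and 238 TPM. Tpm2, the beta-tropomyosin gene of skeletal and smooth muscle (ENSMUSG00000028464.12, chr4:43514711-43523765, minus strand), was lowest of the 4, at 110 and 128 TPM. Replicate 2 had the higher TPM for each of these genes, and TPM of all genes also ran higher there (median log2 ratio 0.15). By counts scaled to set the bulk of genes equal, Tpm4 and Tpm3 were lower in replicate 2 (log2 ratios −0.03 and −0.10). On that scale Tpm2 was higher (0.07).

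Within each library, TPM gave the same order of the tropomyosins: Tpm1, Tpm4, Tpm3, Tpm2. Tpm1 was 11.5-fold above Tpm4, 14.0-fold above Tpm3 and 27.9-fold above Tpm2 (geometric means of the 2 libraries). By ratio of reads, with no length correction, Tpm1 was 6.43-fold above Tpm4 and 8.08-fold above Tpm3. Tpm4 and Tpm3, the nearest neighbours, differed 1.19-fold in replicate 1 and 1.26-fold in replicate 2, with credibility intervals that did not overlap in either library. Of the 14 pairs of related genes compared, all 14 kept their direction in both libraries with separate intervals. The intervals cover the estimate within a library only, and no share was computed for other pairs of genes. The count therefore cannot be read as particular to these genes. Requiring a 2-fold difference in both libraries kept 12. The pairs left out were Tpm4 with Tpm3, and Tpm2 with Tpm3, whose ratio was 0.473 in replicate 1 and 0.536 in replicate 2.

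Reads of 2 tropomyosin genes could be divided with near-identical copies elsewhere. Of the 50-nt windows in Tpm3 transcripts, 23.2% also occurred in another gene, all of them in the copy Tpm3-rs7, which was listed at 2.13 and 2.76 TPM. In Tpm4 11.7% of windows were shared, with the pseudogene Gm7809 at 1.51 and 3.36 TPM. Tpm1 and Tpm2 shared none. Tpm4 also overlaps the antisense genes Gm16091 and Gm26586, listed at 0.23 to 1.06 TPM. Among the 10 genes, only Tpm3, Tpm4 and Tmod1 had estimated counts that were not whole numbers, as did 26.9% of expressed protein-coding genes. Summed with Tpm3-rs7, a setting added after the values were seen, Tpm3 came to 238 TPM, against 236 alone.

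Among the tropomodulins, Tmod1 stood highest. Tmod1, the tropomodulin of heart muscle and red cells (ENSMUSG00000028328.9, chr4:46038935-46116032, plus strand), was at 133 and 149 TPM and held 79.2% ± 0.2 of the 178 ± 14 TPM of the 4 tropomodulins. Tmod3, which is broadly expressed (ENSMUSG00000058587.7, chr9:75497707-75559657, minus strand), was at 30.7 and 33.8 TPM, 4.38-fold below Tmod1. Tmod2, the neuronal tropomodulin (ENSMUSG00000032186.10, chr9:75565621-75611325, minus strand), was at 3.80 and 3.85 TPM, 36.9-fold below Tmod1. Tmod2 and Tmod3 lie close together on the same strand. Tmod1 shared 2.82% of its 50-nt windows with other genes, 340 in all, and Tmod3 shared 0.943%.

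Tmod4, the tropomodulin of skeletal muscle (ENSMUSG00000005628.8, chr3:95124476-95129209, plus strand), rested on 20 reads in replicate 1 and 26 in replicate 2. Its transcript assignment turned over between the libraries. Tmod4-201 had 75.4% of the gene in replicate 1 and 0 in replicate 2, where Tmod4-206, a retained intron, had 58.3% and Tmod4-202 had 41.7%. No Tmod4 transcript reached 5% in both libraries.

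Erythroid markers differed between the libraries, and Tmod1 is also a red cell gene. Of the 10 erythroid markers 8 were lower in replicate 2 by scaled counts and none was at 0, while the log2 ratio of Tmod1 was 0.02. Skeletal muscle markers, beside which Tmod4 may be read, were detected in 5 of 11 cases and summed to 191 and 252 TPM. Most of it was Ckm, at 172 and 218 TPM. How much of the Ckm came from heart muscle was not tested, so the sum cannot be read as a level of skeletal muscle. Of the regulators that define that lineage, Myod1 was at 0.33 and 0.52 TPM and Myog at 1.15 and 2.90 TPM in replicates 1 and 2. Myf5 was at 0.09 and 0.13 TPM, and Myf6 was lower in replicate 2, at 0.30 and 0.06 TPM. All 7 skeletal muscle markers with enough reads were higher in replicate 2 by scaled counts (median log2 ratio 0.54), and 2 were past 2-fold. On that measure Tmod4, with too few reads to be counted (20 and 26), had a log2 ratio of 0.33. By TPM Tmod4 was at 0.64 and 1.16. The part of these other cells in the tropomodulin levels was not tested.

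Of the leiomodins, Lmod2 was the abundant one. Lmod2, the leiomodin of heart and skeletal muscle (ENSMUSG00000029683.6, chr6:24597762-24605414, plus strand), was at 33.3 and 38.5 TPM. Lmod1, the smooth muscle leiomodin (ENSMUSG00000048096.7, chr1:135324807-135368065, plus strand), was 34.5-fold lower by TPM and 16.8-fold lower by reads, from 109 and 117 reads. Lmod3, the remaining gene of the family and known from skeletal muscle, was at 11.1 and 13.6 TPM, 2.92-fold below Lmod2 and 11.8-fold above Lmod1. All 8 smooth muscle markers were detected, with a summed level of 1599 and 1845 TPM. Most of it was Acta2, at 956 and 1093 TPM, followed by Des at 306 and 349 TPM. How much of that sum came from smooth muscle, and how much from heart muscle, was not tested. Myh11, the myosin that defines mature smooth muscle, was at 2.14 and 2.54 TPM, and Mylk was at 4.28 and 4.48 TPM. Lmod2 was 0.254 times Tmod1 by TPM and 0.155 times by reads, Tmod1 being the capping protein it works beside at the filament end.

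The tables listed 63 transcripts of the 10 genes, and 14 of them held at least 5% of their gene's TPM in both libraries. These 14 came from 9 genes, 8 of them from the tropomyosins, and 13 were protein coding. Among the 8 detected genes 13 of 56 transcripts passed, beside 42.4% of transcripts of all detected protein-coding genes. Of the 6 detected genes with more than 1 transcript, 3 had 1 transcript above 90% in both libraries (22.6% of such genes overall) and 5 had 1 above 50% (71.5% overall). Tmod3-201, Lmod1-201 and Lmod2-201 were the only transcripts listed for their genes.

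A single Tpm1 transcript dominated. Tpm1-205, of 284 codons with exons 1a, 2b, 6b and 9a, held 91.2% of the gene in replicate 1 and 92.3% in replicate 2, at 2800 and 3289 TPM. The other 20 listed Tpm1 transcripts were each below 5%. The largest of them, Tpm1-216, keeps 1a, 2b and 6b but ends in 9d, and held 1.73% in each library. Tpm1-201, a second transcript of striated muscle structure, added 33.8 and 36.1 TPM. Forms of striated muscle structure thus held 92.8% ± 0.7 of Tpm1.

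Tpm2 was divided among 3 transcripts that all start in exon 1a. Tpm2-202, with the striated muscle exons 6b and 9a, held 44.3% in replicate 1 and 41.0% in replicate 2. Tpm2-203, with 6a and 9d, the pairing of smooth muscle and fibroblasts, held 37.2% and 35.5%. Tpm2-201, which joins 6a to the muscle end 9a, held 18.5% and 22.3%. By exon, 6a was in 56.7% ± 1.5 of Tpm2 and 6b in 42.6% ± 2.3, while 9a was in 63.0% ± 0.4 and 9d in 36.4% ± 1.2.

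Tpm3 came mostly from the internal start. Tpm3-201, a short form of 248 codons with 1b, 6a and 9d, held 71.7% and 68.4%. Tpm3-202, also starting in 1b but with 6b and 9a, held 13.8% and 17.1%. The long striated muscle form, Tpm3-205 with 1a, 6b and 9a, held 0.82% and 1.10%, or 1.92 and 2.62 TPM. As a share of reads without length correction it was 0.506%, against a mean of 0.962% by TPM. Exon 1b was in 85.6% ± 0.2 of Tpm3 and exon 1a in 0.96% ± 0.20.

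Another 13.5% ± 0.4 of Tpm3 lay in transcripts with no complete coding model. Tpm3-215, a retained intron transcript of 512 nt, passed the 5% line at 5.66% and 5.31% of TPM but held 1.19% and 1.11% of reads. Tpm3-207, also a retained intron, fell just outside it at 4.61% and 5.23% of TPM but held a mean of 5.66% of reads. Whether these reads came from unspliced RNA was not tested. Tpm4 was read almost wholly from Tpm4-201, a short form of 248 codons, at 99.8% and 100%.

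**Figure D2:**
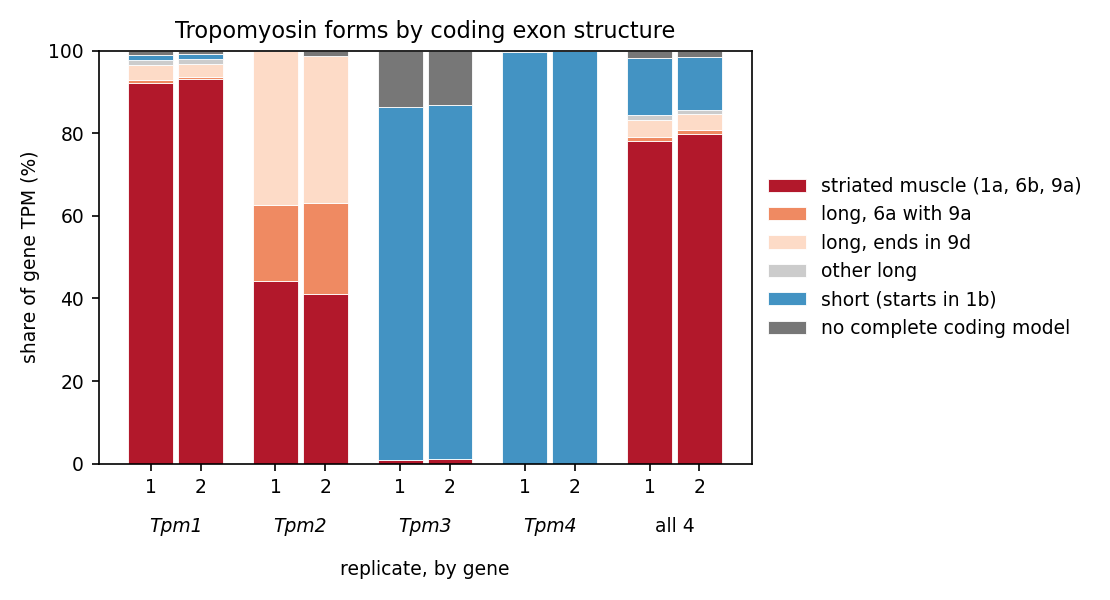
Share of each tropomyosin gene's TPM (%) in forms defined by coding exons, with 1 stacked bar per library and the sum of the 4 genes at the right. Tpm1 is mostly the striated muscle form, Tpm2 is divided, and Tpm3 and Tpm4 are mostly short forms.

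Over the 4 genes, the striated muscle form held 79.0% ± 1.3 of tropomyosin TPM, or 3132 ± 350 TPM. Tpm1 supplied 98.3% of it, Tpm2 1.62% and Tpm3 0.072%. Short forms held 13.4% ± 0.8, or 531 ± 20 TPM, of which Tpm4 supplied 54.3%, Tpm3 38.0% and Tpm1 7.64%. Long forms ending in 9d held 3.96% ± 0.19, of which Tpm1 supplied 72.4% and Tpm2 27.6%.

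The shares depended on length correction. By share of reads in place of TPM, the striated muscle form was 51.1% of Tpm2 and 70.4% of all tropomyosins. Tpm2-202 is 2098 nt long and Tpm2-203 is 1164 nt, so equal numbers of molecules give unequal numbers of reads. When either exon 6 was accepted beside 1a and 9a, a definition chosen after the values were seen, the share of Tpm2 became 63.0%. Tpm1 stayed between 91.0% and 93.6% under each alternative tried.

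**Figure D3:**
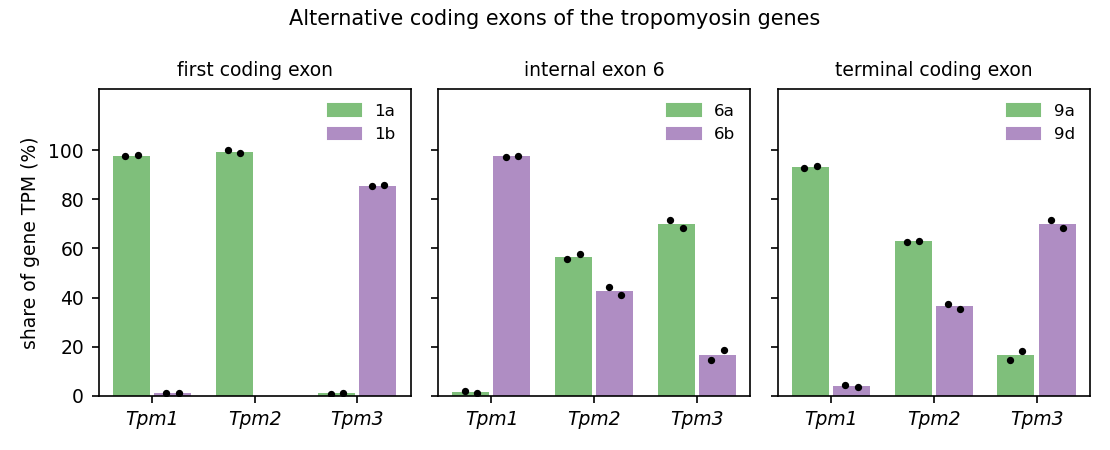
Share of gene TPM (%) carried by transcripts with each alternative coding exon of Tpm1, Tpm2 and Tpm3. Bars are means of 2 libraries and points are the libraries. Exon pairs do not reach 100% where transcripts lack a complete coding model or use another end.

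Tpm1 kept nearly all of its TPM on the exons of the striated muscle form at each choice. Exons 1a and 6b are not confined to that form. Both are also in Tpm1-216 and Tpm1-215, which end in 9d, and 6b is in the short form Tpm1-211. Exon 1a was in 97.9% ± 0.1, exon 6b in 97.6% ± 0.4 and exon 9a in 93.3% ± 0.5, with 9d in 3.93% ± 0.33. For the second exon of long forms, 2b was in 97.2% ± 0.2 and the smooth muscle exon 2a in 0.67% ± 0.09, through Tpm1-215 at 22.6 and 21.7 TPM. Tpm3 was the reverse of Tpm1 at all 3 regions: 1b, 6a and 9d were ahead, and 6a and 9d each held 71.7% in replicate 1 and 68.4% in replicate 2. In Tpm2 the regions differed, 6a being ahead at the internal pair and 9a at the end by TPM. By share of reads the lead of 6a was lost in replicate 1 (46.8% against 53.1% for 6b) and kept in replicate 2 (50.4% against 49.1%).

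The other genes with 2 or more listed transcripts were Tmod1, Tmod2 and Tmod4, the last given above. Tmod1-201 held 100% and 99.6% of Tmod1. Tmod2 had 2 transcripts with coding parts of the same length (1053 nt), Tmod2-203 of 1528 nt at 85.5% and 91.0%, and Tmod2-201 of 9893 nt at 14.5% and 9.0%. With that difference in length, Tmod2-201 had more reads in replicate 1 (158 against 136), and Tmod2-203 held 53.0% of reads on average against 88.3% of TPM. The Tmod1 gene overlaps Tstd2 on the opposite strand over 1287 nt. Tstd2 was at 20.7 and 21.1 TPM, and whether counting used strand was not given in the sources used here.

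The replicates differed little in these genes. Ratios of replicate 2 over replicate 1 were taken on counts scaled by TMM, a factor that sets the bulk of genes equal, for genes with a mean scaled count of at least 50. None of the 9 genes with enough reads was 2-fold apart, and 1.00% of 13760 genes were (0.734% higher and 0.269% lower in replicate 2). The log2 ratio was 0.07 for Tpm1, 0.07 for Tpm2, −0.10 for Tpm3 and −0.03 for Tpm4. It was 0.02 for Tmod1, −0.01 for Tmod3, 0.06 for Lmod1 and 0.06 for Lmod2. Of the 9 genes 5 were higher in replicate 2, beside 49.2% of all genes, and their median was 0.02 against −0.003 for all genes.

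Tmod2 differed most, with a log2 ratio of −0.40 from 294 and 230 reads. The fall lay in reads assigned to the long transcript Tmod2-201, at 158 in replicate 1 and 92.7 in replicate 2. Tmod2-203, which held most of the gene's TPM, was at 136 and 137 reads. All 4 neural markers with enough reads were also lower in replicate 2 by scaled counts (median log2 ratio −0.37), and neural markers were detected in 3 of 7 cases. By TPM the 7 markers summed to 12.6 in replicate 1 and 14.5 in replicate 2, so their direction depended on the measure. Their part in the Tmod2 ratio was not tested. By TPM its log2 ratio was 0.02, beside a median of 0.15 for all genes. With 1 library on each side no p-value was computed, and scaling to the spike-ins moved all genes by a median log2 ratio of 1.29. On that scale 8 of 9 genes were 2-fold apart, as were 93.1% of all genes, and none was 2-fold from that median.

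**Figure D4:**
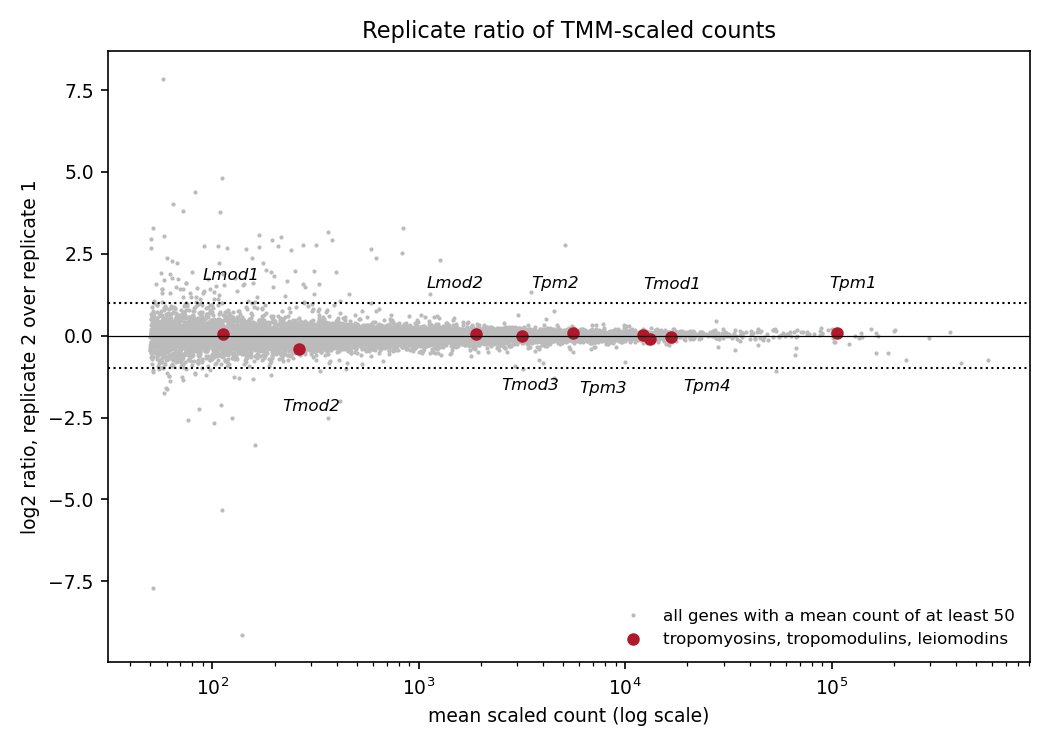
Log2 ratio of TMM-scaled counts, replicate 2 over replicate 1, against mean scaled count (log scale) for each gene with a mean of at least 50. The 9 labelled genes lie between −0.40 and 0.07, inside the dotted lines at 2-fold.

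Of the partners of tropomyosin in the thin filament, cardiac actin and troponin T stood above Tpm1. The list of 10 actin and troponin genes had 9 detected and a median of 1177 TPM, against 3.07 TPM for all protein-coding genes. Actc1 was at 8858 and 10485 TPM, Tnnt2 at 4312 and 5086 TPM, slow troponin I Tnni1 at 2795 and 3441 TPM and troponin C Tnnc1 at 2676 and 3411 TPM. Tpm1 was 0.347 and 0.340 times Actc1 in replicates 1 and 2, and 0.712 and 0.701 times Tnnt2. All tropomyosins together were 0.399 times Actc1 plus Acta1 on average. At the filament end, Tmod1 was 68.4-fold below Actc1 and 23.5-fold below Tpm1.

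Genes of thin filament assembly were lower than Tmod1, apart from nebulette. That list had 10 of 11 detected and a median of 12.1 TPM. Nebl (nebulette, a cardiac Z-disc protein) was at 171 and 203 TPM, Xirp1 at 36.7 and 36.6 TPM, Nrap at 21.3 and 23.0 TPM and Klhl41 at 11.0 and 14.2 TPM. Xirp2 was below the threshold, at 0.06 and 0.09 TPM. The list of filament capping and turnover had 11 of 11 detected, at a median of 166 TPM. Pfn1 (profilin) was at 1234 and 1301 TPM, Cfl1 (cofilin) at 1176 and 1308, Dstn at 668 and 742, and Capzb, which caps the opposite end from Tmod1, at 292 and 315 TPM. Tmod1 was 0.465 times Capzb.

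The cytoskeletal tropomyosins were read beside non-muscle actin and myosin genes, 8 of 8 detected at a median of 781 TPM. Actb was at 1808 and 2146 TPM, Myl9 at 1318 and 1519, Actg1 at 1004 and 1012 and Myl6 at 873 and 1028 TPM. Tpm3 plus Tpm4 was 0.176 times Actb plus Actg1, a lower ratio than the 0.399 of all tropomyosins to the striated actins. Of 18 RNA-binding proteins known or thought to act on tropomyosin or muscle exons, 17 were found, at a median of 31.8 TPM. Rbpms was at 200 and 227 TPM, Ptbp1, which represses muscle exons of tropomyosin genes, at 110 and 98.8 TPM, Rbpms2 at 81.9 and 88.9 TPM and Celf1 at 72.8 and 80.8 TPM. Esrp1, a regulator of epithelial splicing, was at 0.85 TPM in each library. None of the genes in these 5 lists with enough reads was 2-fold apart between the libraries.

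Short tropomyosin forms are also made by other cells of the heart, whose markers were measured. Fibroblast markers were detected in 6 of 6 cases, with a summed level of 1543 and 1319 TPM, and endothelial markers in 5 of 5 cases, at 195 and 205 TPM. The median log2 ratio was −0.39 for the fibroblast list and −0.10 for the endothelial list, beside −0.10 for Tpm3 and −0.03 for Tpm4. No marker of these lists was at 0, and their part in the short tropomyosin forms was not tested.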

How the data were processed

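Hearts of E13.5 mouse embryos gave 2 total RNA libraries of 1 group. The authors estimated an expected count per gene and transcript from transcriptome alignments, with no normalization, per the file headers. Deposited TPM values share 1 total across libraries, spike-ins counted, per the file headers, and come with posterior means and credibility bounds whose level is not stated. Per the file headers, the percent column of the deposited transcript tables is a transcript's share of its gene's TPM. Per the deposited file descriptions, each table came from transcriptome alignments of 1 library on mm10 with annotation M4. The quantifier and its version were not given in the sources used here. Such estimates divide reads among similar transcripts, and TPM depends on all other features, spike-ins included.

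Names, exons and sequences came from GENCODE M21 on GRCm38, to which 42462 of 43346 genes and 62 of 63 member transcripts matched, 58 of them with the same length. Tropomyosin forms were assigned by script from coding exon lengths and order. Spike-ins, phiX (0 reads) and 26248 numbered features (0.000114% and 0.000136% of reads) were kept out of library sizes. Expected counts were rounded and scaled in R 4.3.3 by TMM (edgeR 4.0.16) or, alternatively, by size factors of DESeq2 1.42.0, and 0.5 was added before log2. Other steps used Python 3.11.15, pandas 2.3.3, numpy 2.4.6 and matplotlib 3.10.9. The ratio step was tested on simulated data. A pair was called when its direction was the same and the deposited TPM intervals were apart in both libraries.

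The members and lists were chosen with earlier results of these data known. Named genes are all members, their transcripts at 5% or more in both libraries, and from each other list up to 4 highest by mean TPM and those below 1 TPM in both. The transcripts Tpm1-201, Tpm1-215, Tpm1-216, Tpm3-205, Tpm3-207 and those of Tmod4, the genes Lmod3, Acta1, Tstd2, Tpm3-rs7, Gm7809, Gm16091 and Gm26586 and the markers named singly lie outside this rule and were chosen after their values were seen. The 2 libraries differed by more than counting error (25.2 chi-square units per degree of freedom) and were kept as 2 replicates.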

Additional observations from a re-analysis of the deposited data

How the results depend on the processing

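The number of detected genes ranged from 7 at a threshold of 5 TPM to 10 at 0.5 TPM, and without replicate 1 or replicate 2 it was 10 and 8. Pairs called ranged from 12 to 14, and transcripts at the share threshold from 12 (10 percent) to 20 (posterior mean TPM), with 17 and 16 when either library was left out. By share of expected counts the striated muscle form was 91.0% of Tpm1, 51.1% of Tpm2, 0.506% of Tpm3 and 70.4% of all tropomyosins, since reads are not corrected for length. Over transcripts with a complete coding model only, it was 93.6% of Tpm1 and 80.3% of all tropomyosins. With either exon 6 accepted, an alternative chosen after seeing the data, it was 63.0% of Tpm2. Leaving out a library gave 92.3% to 93.3% for Tpm1, 41.0% to 44.3% for Tpm2, 0.823% to 1.10% for Tpm3 and 78.1% to 79.9% for all. Spike-in scaling put 8 genes 2-fold apart between replicates, against 0 under TMM, DESeq2 size factors, TPM, the other count minimums and a pseudocount of 5. Among single values, 11 of 41 gene levels, 18 of 56 pair ratios and 9 of 56 transcript shares moved by more than the SD of the 2 libraries. These totals include values with 1 library left out, which lie within that SD by construction and could not move. The moved values therefore all came from the other alternatives, and the totals understate how often those moved a value. The log2 ratio of replicates moved by more than 0.1 in 18 of 53 cases, which include changes of the count minimum that cannot alter a gene's ratio. No pair ratio turned direction. No paired analysis was possible because the series has 1 group.

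With 2 libraries each SD rests on 1 difference, and the credibility bounds cover the estimate within a library only. Tmod4, Lmod1 and Tmod2 rest on few reads, and their transcript shares are limited by depth. Length models differ in 5 of 63 transcripts between M4 and M21 or have no match.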
